A study of Homo sapiens with 18 samples.

Results

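The genes described here are ID1, ID2, ID3, ID4, SMAD6, SMAD7 and BAMBI, 7 of the 60623 genes in the deposited gene table, followed through starvation, feeding and mTOR inhibition in HEK-293E cells, a human embryonic kidney line. They were chosen by name as targets of bone morphogenetic protein (BMP) signalling, and selected on the feeding response of ID1, which was known to be higher in fed cells with and without Torin1. All 7 were found by symbol and passed the filter on low counts.

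BMPs bind pairs of type I and type II receptor kinases, which phosphorylate SMAD1, SMAD5 and SMAD9 (also called SMAD8). These join SMAD4 in the nucleus and bind GC-rich sites near their targets. The ID genes encode helix-loop-helix proteins that lack a DNA-binding region, pair with E proteins such as TCF3 and keep them off DNA, and ID1 to ID3 are among the most widely used readouts of BMP signalling. SMAD6 and SMAD7 are inhibitory SMADs, the first directed mainly at BMP receptors and the other at both BMP and TGF-beta receptors, and BAMBI is a receptor decoy without a kinase domain. The last 3 are themselves SMAD targets and form the negative feedback of the pathway. Torin1 blocks the kinase mTOR, the nutrient and growth-factor sensor whose complexes drive ribosome production and restrain autophagy.

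RNA was sequenced from 6 groups of 3 libraries. All cells were starved overnight in DMEM with 0.1% serum, and the groups were starved cells, cells returned to growth medium with 10% serum for 1 h, and cells returned to it for 4 h, each with Torin1 and without it. The sources used here give neither the dose of Torin1 nor how long it was present. They do not tie the replicates of a group to different cultures; p-values therefore reflect variation among the libraries at hand, which may be technical. The return to growth medium raised serum from 0.1% to 10% and so brought many serum components together. The component behind a feeding difference therefore cannot be told apart.

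Library totals ranged from 10510689 to 13690035 counts, and 3 counts, the limit set by a count of 0, corresponded to 0.209 to 0.292 CPM (a gene's counts as a share of the TMM-scaled library total). The lowest count of any of the 7 genes in a library was 31, for ID1 in a starved library. All 8 listed HEK-293 markers averaged over 1 CPM, against 3 of 7 fibroblast, 1 of 5 immune and 0 of 5 endothelial markers. The endothelial markers summed to at most 1.85 CPM in any library. The summed level of the HEK-293 markers was 1349 to 1704 CPM in the 9 Torin1 libraries and 965 to 1230 CPM in the 9 libraries without it; its part in the results was not tested. VIM made up most of that sum, with 1141 CPM in starved cells with Torin1 and 631 CPM without, whereas NEFM (68.3 and 145 CPM), LIN28B (76.3 and 151 CPM) and ENO2 (33.2 and 51.4 CPM) were lower with Torin1 in the same comparison. The fibroblast list summed to 15.3 to 37.1 CPM with Torin1 and 8.49 to 44.1 CPM without, and its part was not tested either. COL1A1 was the highest of that list, with group means of 11.6 to 18.1 CPM, and COL3A1 had 0.270 to 3.88 CPM. Both were at 0 in 0 libraries, whereas THY1 was at 0 in 8 libraries and DCN in 12. EGR1, an immediate-early gene, averaged 105 CPM (SD 41.9) in 1 h fed cells and 14.8 CPM (SD 5.47) in starved cells. ASNS, an amino acid stress gene, averaged 45.6 CPM (SD 2.94) in starved cells with Torin1 and 366 CPM (SD 18.6) without it.

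The 250 bases before the RefSeq transcript start (assembly GRCh38.p14) are shown for ID1, which had the largest feeding difference of the 7, and for SMAD6 and BAMBI, the 2 genes whose windows held SMAD motifs of 6 letters or more. Capitals mark matches, on either strand, to GGCGCC (the GC-rich site of BMP SMADs), GTCTAGAC (the SMAD palindrome) and CAGAC (a shorter SMAD site, written GTCTG where it lies on the other strand):
ID1 (chr20:31605039-31605288, plus strand): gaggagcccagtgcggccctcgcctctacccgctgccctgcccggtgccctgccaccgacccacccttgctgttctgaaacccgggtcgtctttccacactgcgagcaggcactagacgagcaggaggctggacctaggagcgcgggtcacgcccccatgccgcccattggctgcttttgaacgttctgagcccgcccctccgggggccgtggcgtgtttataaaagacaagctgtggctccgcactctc
SMAD6 (chr15:66701986-66702235, plus strand): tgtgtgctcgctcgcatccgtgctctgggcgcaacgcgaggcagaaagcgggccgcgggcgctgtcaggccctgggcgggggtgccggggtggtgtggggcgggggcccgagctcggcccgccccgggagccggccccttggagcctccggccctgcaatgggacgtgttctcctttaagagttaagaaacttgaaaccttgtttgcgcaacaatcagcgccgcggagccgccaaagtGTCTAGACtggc
BAMBI (chr10:28677271-28677520, plus strand): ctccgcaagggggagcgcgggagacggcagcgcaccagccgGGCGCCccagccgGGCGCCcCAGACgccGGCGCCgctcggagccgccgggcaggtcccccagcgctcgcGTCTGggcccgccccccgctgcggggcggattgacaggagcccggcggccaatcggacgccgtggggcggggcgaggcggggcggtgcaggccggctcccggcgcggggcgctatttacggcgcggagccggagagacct
The SMAD6 window held the palindrome 12 to 5 bases before the start, a match found in 0.202% of 35116 promoter windows of this kind. BAMBI had 3 copies of GGCGCC between 209 and 176 bases before its start, and 19.2% of windows held at least 1. That share is not matched for base content: G and C made up 80% of the BAMBI window, against a median of 58.7% over all windows. CAGAC lay in 45.3% of windows, and BAMBI had 2 copies, ID3 and ID4 1 each. ID1 had no match, in the window of 250 bases before and 50 after its start, to these or to the other 4 motifs searched, which were TGACGTCA (cAMP response, in 1.85% of windows), GCGTGGGCG (EGR, 0.794%), CACGTG (E-box of MYC and USF, 7.26%) and CAGCTG (E-box of E proteins, 17.9%). The well-known BMP-responsive enhancer of ID1 lies further upstream than this window. CAGCTG was matched in the windows of ID2 and ID4. SMAD7 had 3 windows, 2 of which held CAGAC. The protein-coding isoforms with the nearest annotated starts were the minor SMAD7-207, SMAD7-208 and SMAD7-204, at distances not given here. For the ID2 window it was ID2-202, which held 9.91% of ID2 counts. In the GENCODE annotation BAMBI begins at base 28677342, so part of the BAMBI window shown lies inside the annotated gene. The ID3 window, bases 23559502 to 23559751, also lies inside its annotated gene, 23557918 to 23559794.

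**Figure D1:**
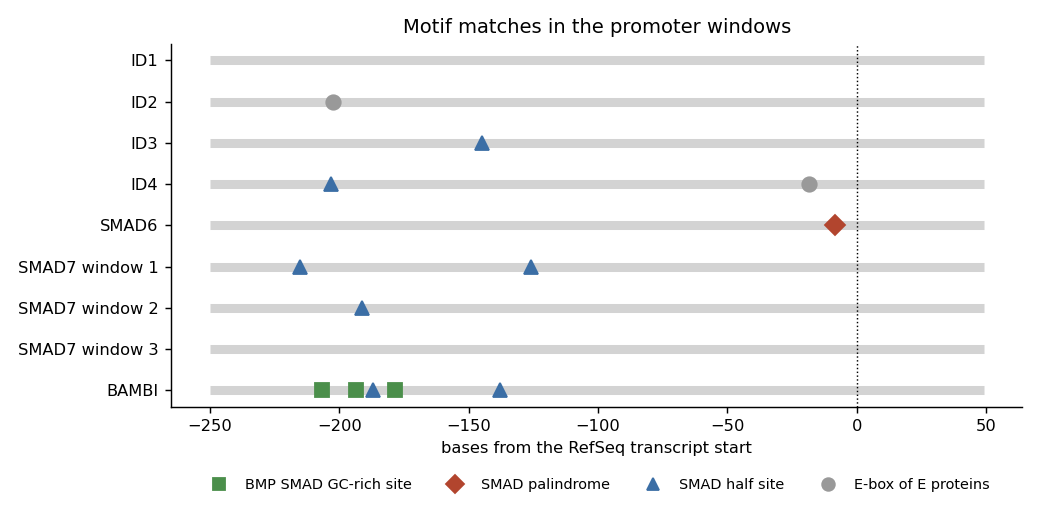
Positions of motif matches (markers) in the promoter windows of the 7 genes, with SMAD7 represented by 3 windows; the x axis gives bases from the RefSeq transcript start and grey bars span each window. BAMBI holds 3 GC-rich sites and SMAD6 the palindrome at 12 to 5 bases before the start, while the ID1 window is empty.

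Per transcript length, the genes fell into an abundant trio (ID2, ID4, ID3) and 4 low genes. In 4 h fed cells with Torin1 the order was ID2 (198 ± 9.61 TPM, a level per transcript length computed from isoform counts; SD, n = 3), ID3 (135 ± 7.27), ID4 (76.7 ± 6.74), ID1 (45.7 ± 4.14), SMAD7 (23.4 ± 1.56), SMAD6 (19.3 ± 1.12) and BAMBI (13.2 ± 3.04), with no overlap between neighbours. In starved cells without Torin1, ID2 had 96.0 ± 9.77 TPM, ID4 86.3 ± 13.0 TPM and ID3 34.0 ± 4.59 TPM. BAMBI had 8.71 ± 1.75, ID1 5.73 ± 0.431, SMAD7 5.28 ± 1.11 and SMAD6 4.12 ± 0.699 TPM in the same cells. ID2 and ID4 overlapped there, as did ID1 with SMAD7 and SMAD7 with SMAD6. Over the 6 groups, mean CPM spanned 7.08-fold for ID1, 4.26-fold for SMAD6, 4.03-fold for SMAD7, 3.59-fold for ID3, 2.68-fold for ID4, 1.91-fold for ID2 and 1.64-fold for BAMBI. For 5 of the 7 genes the highest group was 4 h fed cells with Torin1; for ID4 it was 1 h fed and for BAMBI 4 h fed cells, both without Torin1.

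**Figure D2:**
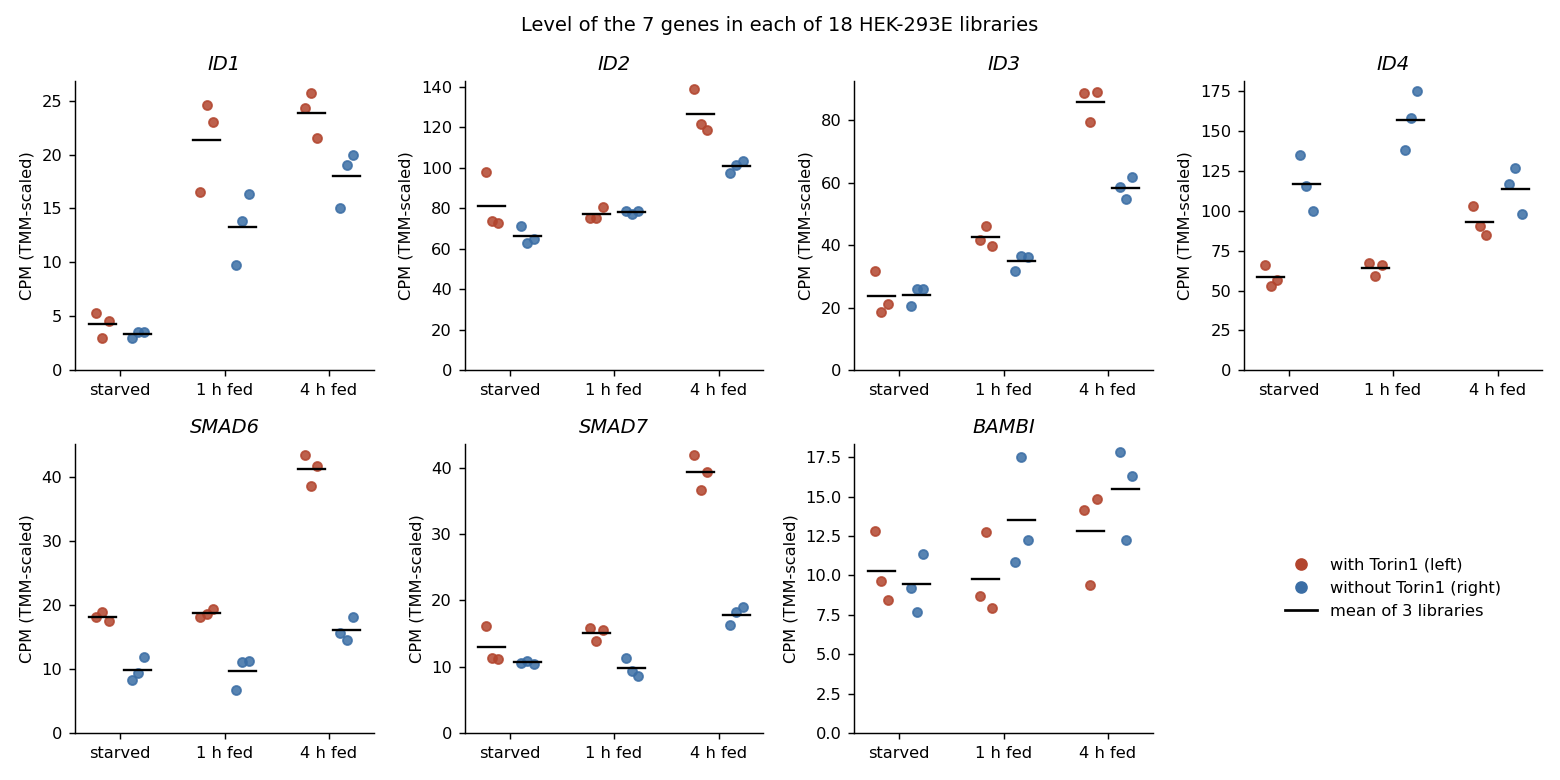
CPM scaled by TMM (y axes, linear from 0) of each gene in every library by feeding state (x axis); points are libraries, lines are means of 3, and Torin1 libraries stand left of those without it. SMAD6 and SMAD7 are highest in the 4 h fed Torin1 libraries, at 38.6 to 43.4 and 36.7 to 42.0 CPM, and ID4 is lowest in the starved and 1 h fed Torin1 libraries.

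Among the ID genes, ID1 had the largest feeding difference and ID4 the largest Torin1 difference. The feeding response of ID1 was used to pick the genes, so feeding values are given as a description only. ID1 (chromosome 20, 31605283 to 31606515, plus strand; positions here and below are from GENCODE release 29 on GRCh38, the build behind the counts being not given in the sources) had 5.29, 2.97 and 4.56 CPM in starved cells with Torin1, 16.5, 24.6 and 23.0 CPM after 1 h of feeding with it and 24.3, 25.7 and 21.5 CPM after 4 h. Without Torin1, ID1 had 3.01, 3.51 and 3.58 CPM in starved cells, 9.73, 13.8 and 16.3 CPM after 1 h and 15.1, 19.0 and 20.0 CPM after 4 h. Every fed library was above every starved library in either arm. The log2 fold change over starved cells with Torin1 was 2.32 (SE 0.20) at 1 h and 2.47 (SE 0.20) at 4 h, and without Torin1 it was 1.98 (SE 0.22) and 2.41 (SE 0.22), that is 4.98-fold and 5.54-fold with Torin1 and 3.93-fold and 5.32-fold without.

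The other ID genes had smaller feeding values. ID2 and ID3 were highest at 4 h in both arms, and ID4 at 4 h with Torin1 but at 1 h without it. ID3 (chromosome 1, 23557918 to 23559794, minus strand) had, with Torin1, 31.7, 18.7 and 21.2 CPM in starved cells, 41.7, 46.2 and 39.8 CPM at 1 h and 88.6, 79.6 and 89.0 CPM at 4 h. Without Torin1, ID3 had 20.4, 26.0 and 25.9 CPM in starved cells, 31.7, 36.6 and 36.3 CPM at 1 h and 58.6, 54.7 and 61.8 CPM at 4 h. Levels stepped up at each time in both arms with no overlap between neighbouring times. ID2 (chromosome 2, 8678845 to 8684453, plus strand) had, with Torin1, 97.8, 73.5 and 72.6 CPM in starved cells, 74.9, 75.0 and 80.7 CPM at 1 h and 139, 122 and 119 CPM at 4 h. Without Torin1, ID2 had 70.9, 62.6 and 64.9 CPM in starved cells, 78.8, 77.0 and 78.5 CPM at 1 h and 97.5, 101 and 103 CPM at 4 h. The 1 h fed and starved libraries of ID2 overlapped with Torin1 and lay apart without it. ID4 (chromosome 6, 19837386 to 19840684, plus strand) had, with Torin1, 66.3, 53.1 and 56.7 CPM in starved cells, 67.1, 59.1 and 66.0 CPM at 1 h and 103, 90.8 and 85.1 CPM at 4 h, the 4 h libraries lying apart from the rest. Without Torin1, ID4 had 135, 116 and 99.7 CPM in starved cells, 138, 158 and 175 CPM at 1 h and 117, 127 and 98.2 CPM at 4 h, and its 4 h fed and starved libraries overlapped.

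For the feedback genes, the 1 h fed and starved libraries overlapped in both arms. SMAD6 (chromosome 15, 66702228 to 66782848, plus strand) had, with Torin1, 18.2, 18.9 and 17.5 CPM in starved cells, 18.2, 18.7 and 19.3 CPM at 1 h and 43.4, 38.6 and 41.8 CPM at 4 h. Without Torin1, SMAD6 had 8.36, 9.44 and 11.8 CPM in starved cells, 6.70, 11.1 and 11.3 CPM at 1 h and 15.7, 14.6 and 18.2 CPM at 4 h. All 9 of its Torin1 values exceeded the starved and 1 h fed values without Torin1. SMAD7 (chromosome 18, 48919853 to 48952052, minus strand) had, with Torin1, 16.2, 11.3 and 11.2 CPM in starved cells, 15.8, 13.9 and 15.6 CPM at 1 h and 42.0, 36.7 and 39.4 CPM at 4 h. Without Torin1, SMAD7 had 10.6, 10.9 and 10.5 CPM in starved cells, 11.3, 9.41 and 8.58 CPM at 1 h and 16.3, 18.3 and 19.0 CPM at 4 h. For both inhibitory SMADs the 4 h fed Torin1 libraries were the highest and lay apart from all the others. BAMBI (chromosome 10, 28677342 to 28682939, plus strand) had, with Torin1, 12.8, 9.62 and 8.42 CPM in starved cells, 8.73, 12.8 and 7.91 CPM at 1 h and 14.2, 9.37 and 14.8 CPM at 4 h. Its values without Torin1 were 9.23, 7.69 and 11.4 CPM in starved cells, 10.8, 17.5 and 12.2 CPM at 1 h and 17.9, 12.3 and 16.3 CPM at 4 h, a range that holds all the Torin1 values.

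Counts of genes past an adjusted p of 0.05 are given for feeding beside the shares over all 16414 genes tested, with nothing read from them, since feeding was used to choose the genes. With Torin1, 2 of the 7 were higher and 0 lower after 1 h of feeding, against 0.274% and 0.128% of all genes, and 6 and 0 after 4 h, against 0.829% and 0.975%. Without Torin1, 1 was higher and 0 lower after 1 h, against 0.481% and 0.164%, and 6 and 0 after 4 h, against 23.2% and 19.1%. The log2 fold changes over starved cells at 4 h of feeding with Torin1 were 1.84 for ID3, 1.60 for SMAD7, 1.18 for SMAD6, 0.66 for ID4, 0.63 for ID2 and 0.31 for BAMBI, each with an SE of 0.10 to 0.22; without Torin1 they were 1.27, 0.75, 0.71, −0.04, 0.61 and 0.72 for the same genes in that order. The first replicate of starved cells with Torin1 was the highest of its group for 6 of the 7 genes, SMAD6 excepted. With that library left out, the values at 1 h of feeding with Torin1 were 1.10 for ID3, 0.43 for SMAD7 and 0.08 for ID2, in place of 0.83, 0.22 and −0.08.

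**Figure D3:**
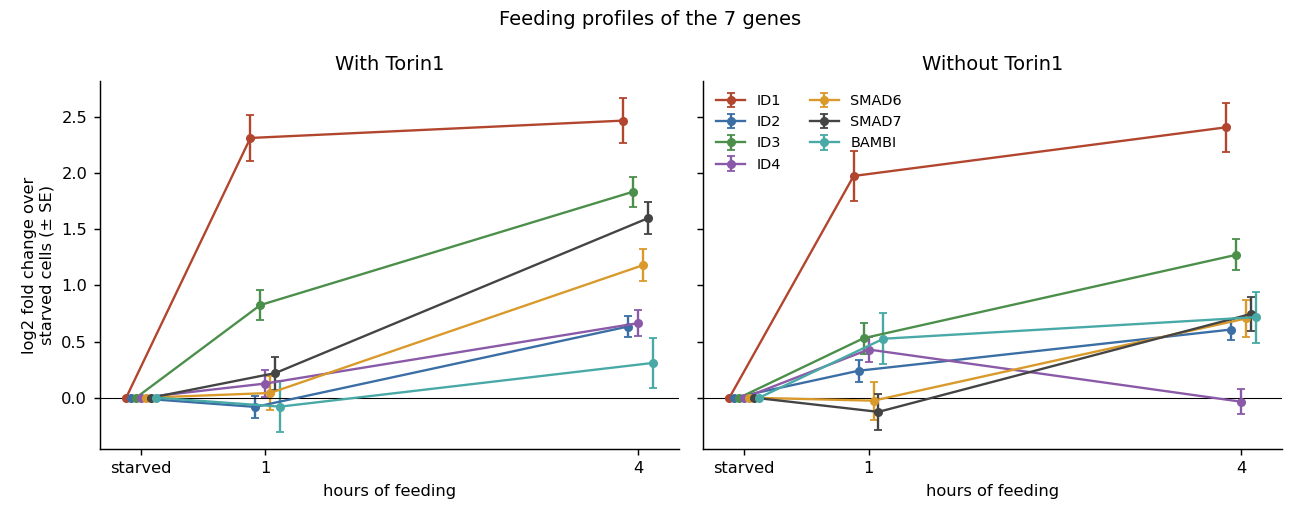
Log2 fold change over starved cells of the same arm (y axis, ± SE) by hours of feeding (x axis), with Torin1 on the left and without on the right; each line is a gene. ID1 lies highest in both arms, at 2.32 and 2.47 with Torin1. With Torin1, SMAD6 lies at 0.04 and 1.18 and SMAD7 at 0.22 and 1.60 at 1 h and 4 h.

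The comparison of cells with and without Torin1 in the same feeding state was not named in the rule that chose the genes. That rule did use ID1 in Torin1 libraries, and earlier results of these data were known. SMAD6 rose with Torin1 in all 3 states, and ID4 fell in all 3. SMAD7 rose in 1 h fed cells, ID2 rose in starved and 4 h fed cells, ID3 and SMAD7 rose in 4 h fed cells, and BAMBI passed the test in none. Values for ID1 are given without a test, since its libraries in both arms were used to choose the genes. In these bulk libraries a change in the share of cells that hold a transcript cannot be told apart from a change per cell, nor a change in total RNA per cell from none, since CPM is relative. In starved cells 2 of the 7 were higher and 1 lower with Torin1, against 33.9% and 29.6% of all genes. In 1 h fed cells 3 were higher and 1 lower, against 33.2% and 29.9%, and in 4 h fed cells 4 were higher and 1 lower, against 27.4% and 28.6%. The 3 include ID1, from which no call is read. With so large a share of all genes called, these counts lie near the background. The median log2 fold change of the 7 genes was 0.29 in starved and in 1 h fed cells and 0.41 in 4 h fed cells, beside 0.09, 0.06 and 0.02 over all genes.

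SMAD6, the BMP-directed inhibitory SMAD, averaged 18.2 ± 0.685 CPM with Torin1 and 9.88 ± 1.79 CPM without it in starved cells (SD, n = 3), and its log2 fold change was 0.88 (SE 0.16, adjusted p = 1.66e-05). In 1 h fed cells it averaged 18.7 ± 0.567 CPM with Torin1 and 9.69 ± 2.59 CPM without (0.95, SE 0.16, adjusted p = 5.46e-06). The 4 h fed averages were 41.3 ± 2.44 CPM with Torin1 and 16.1 ± 1.84 CPM without (1.35, SE 0.15, adjusted p = 4.82e-09). The groups did not overlap in any state. SMAD7 averaged 39.3 ± 2.67 CPM with Torin1 and 17.9 ± 1.42 CPM without in 4 h fed cells, a log2 fold change of 1.14 (SE 0.14, adjusted p = 4.27e-08). In 1 h fed cells SMAD7 averaged 15.1 ± 1.07 and 9.76 ± 1.39 CPM with and without Torin1 (0.63, SE 0.15, adjusted p = 0.000622), and in starved cells 12.9 ± 2.86 and 10.6 ± 0.200 CPM, which did not pass (0.29, SE 0.15, adjusted p = 0.104). Scaling by total counts, under which the all-gene median of the Torin1 difference shifted by 0.14 in starved, 0.11 in 1 h fed and 0.16 in 4 h fed cells, made this last value 0.42 (adjusted p = 0.0173). With a library left out the starved value of SMAD7 was 0.080 to 0.37, with adjusted p up to 0.684. It was lowest without the first starved Torin1 replicate. BAMBI, the receptor decoy, had log2 fold changes with Torin1 of 0.13 in starved, −0.47 in 1 h fed and −0.27 in 4 h fed cells (adjusted p = 0.629, 0.0692 and 0.294), with overlapping groups each time. The 1 h value of BAMBI passed with DESeq2 size factors (−0.52, adjusted p = 0.0460), with no filter on low counts (−0.46, adjusted p = 0.0318) and without the first 1 h fed (−0.61, adjusted p = 0.0306) or the second 1 h fed Torin1 replicate (−0.71, adjusted p = 0.0146). It shrank to −0.24 without the second 1 h fed replicate, and adjusted p reached 0.394 when a library was left out.

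ID4, the family member best known from neural precursors, averaged 58.7 ± 6.83 CPM with Torin1 and 117 ± 17.7 CPM without in starved cells, a log2 fold change of −0.99 (SE 0.12, adjusted p = 2.70e-08). The 1 h fed averages were 64.1 ± 4.36 CPM with Torin1 and 157 ± 18.5 CPM without (−1.30, SE 0.12, adjusted p = 1.80e-10), the largest fall with Torin1 among the 7. In 4 h fed cells the groups overlapped, at 93.1 ± 9.29 CPM with Torin1 and 114 ± 14.6 CPM without (−0.29, SE 0.11, adjusted p = 0.0313). That last call was lost with scaling by total counts (−0.13, adjusted p = 0.330) and without any of 4 libraries, 4 h fed replicate 1 (adjusted p = 0.0815) or 2 (0.218) and 4 h fed Torin1 replicate 2 (0.0851) or 3 (0.134). ID1, given without a test, averaged 21.4 ± 4.30 CPM with Torin1 and 13.3 ± 3.34 CPM without in 1 h fed cells (0.69, SE 0.18). That value was 0.50 to 0.86 when a library was left out. In starved cells ID1 had 0.35 (SE 0.25), and 0.15 to 0.55 with a library left out. In 4 h fed cells it had 0.41 (SE 0.18), and 0.29 to 0.48 with a library left out.

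ID3 averaged 85.7 ± 5.33 CPM with Torin1 and 58.4 ± 3.57 CPM without in 4 h fed cells (0.55, SE 0.13, adjusted p = 0.000504). In 1 h fed cells the groups stood apart at 42.6 ± 3.31 and 34.9 ± 2.76 CPM, yet the difference did not pass (0.29, SE 0.13, adjusted p = 0.0615). It passed with scaling by total counts (0.40, adjusted p = 0.00925), with no filter (0.30, 0.0278) and with only the groups compared (0.26, 0.0457). When a library was left out it was 0.22 to 0.34, with adjusted p up to 0.213. In starved cells the value was −0.01 (SE 0.14, adjusted p = 0.965). ID2 averaged 126 ± 10.97 CPM with Torin1 and 101 ± 2.996 CPM without in 4 h fed cells (0.33, SE 0.10, adjusted p = 0.00429), and 81.3 ± 14.3 and 66.2 ± 4.31 CPM in starved cells (0.30, SE 0.10, adjusted p = 0.00847). The starved call for ID2 was lost without the first starved Torin1 replicate (0.14, adjusted p = 0.198). In 1 h fed cells ID2 stood at −0.02 (SE 0.10, adjusted p = 0.854).

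**Figure D4:**
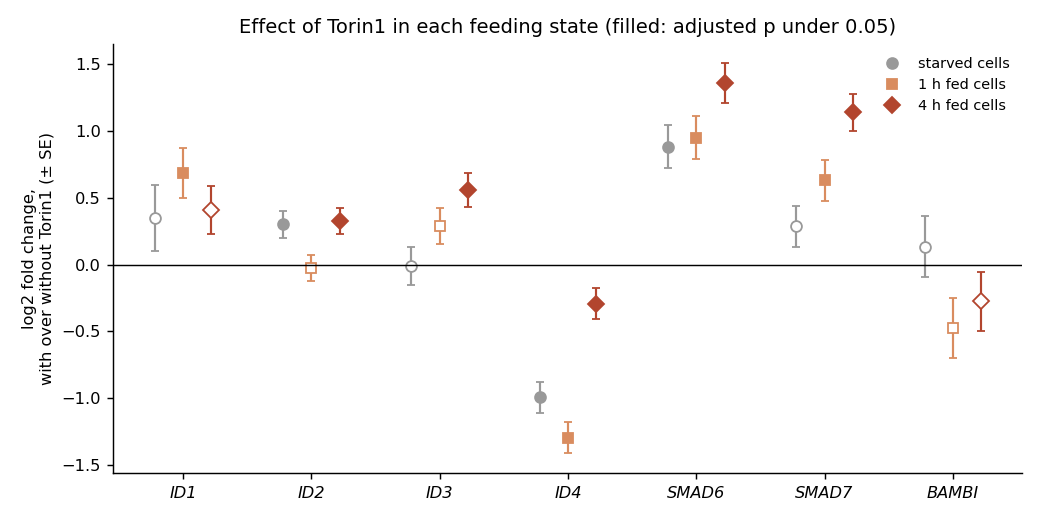
Log2 fold change of cells with over without Torin1 (y axis, ± SE) for each gene (x axis) in starved (circles), 1 h fed (squares) and 4 h fed cells (diamonds); filled markers passed an adjusted p of 0.05. SMAD6 lies at 0.88, 0.95 and 1.35 and ID4 at −0.99, −1.30 and −0.29. The fill of the ID1 markers is not read as a call.

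The later part of the feeding response, from 1 h to 4 h, was compared in each arm. These comparisons share their fed libraries with those that chose the genes, so values for ID1 are given without a test. For the same reason nothing is read from the counts of the 7, which include ID1. With Torin1, 5 of the 7 genes rose and 0 fell, against 0.573% and 0.896% of all genes. The risers were SMAD7 (log2 fold change 1.38, SE 0.14, adjusted p = 1.67e-07), SMAD6 (1.14, SE 0.14, adjusted p = 1.16e-05), ID3 (1.01, SE 0.13, adjusted p = 1.56e-05), ID2 (0.72, SE 0.10, adjusted p = 2.30e-05) and ID4 (0.54, SE 0.12, adjusted p = 0.0128), and their 4 h and 1 h libraries did not overlap. ID1, already at 21.4 ± 4.30 CPM at 1 h, had 0.15 (SE 0.18). BAMBI had 0.39 (SE 0.22, adjusted p = 0.453). The ID4 call was lost without the second 1 h fed (0.48, adjusted p = 0.0913) or the first 4 h fed Torin1 replicate (0.45, adjusted p = 0.0785). Without Torin1, 4 genes rose and 1 fell, against 21.7% and 18.1% of all genes. SMAD7 rose by 0.87 (SE 0.15, adjusted p = 2.55e-05), ID3 by 0.74 (SE 0.13, adjusted p = 4.24e-05), SMAD6 by 0.73 (SE 0.16, adjusted p = 0.000479) and ID2 by 0.37 (SE 0.10, adjusted p = 0.00282). ID4 fell by 0.47 (SE 0.11, adjusted p = 0.00155), the opposite direction to its rise with Torin1. ID1 had 0.43 (SE 0.19), and 0.25 to 0.60 when a library was left out. BAMBI had 0.19 (SE 0.22, adjusted p = 0.518).

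The interaction asked whether the Torin1 difference in fed cells was unlike that in starved cells. ID1 was left out of this test because its feeding response in both arms chose the genes; its interaction values were 0.34 (SE 0.31) at 1 h and 0.06 (SE 0.31) at 4 h. At 4 h, 3 of the other 6 genes were higher and 0 lower, against 9.74% and 16.0% of all genes. SMAD7 had an interaction of 0.85 (SE 0.21, adjusted p = 0.00224), ID4 of 0.70 (SE 0.16, adjusted p = 0.00175) and ID3 of 0.56 (SE 0.19, adjusted p = 0.0284). For SMAD7 and ID3 this stands for a larger excess with Torin1 at 4 h than in starved cells, and for ID4 for a smaller deficit. The ID3 call was lost without replicate 2 or 3 of starved cells in either arm, replicate 1 or 3 of 4 h fed cells with Torin1, or replicate 1 or 2 of those without it, with adjusted p between 0.0501 and 0.110 for these 8 libraries. SMAD6 (0.47, SE 0.22, adjusted p = 0.111), BAMBI (−0.41, SE 0.32, adjusted p = 0.383) and ID2 (0.03, SE 0.14, adjusted p = 0.917) did not pass. At 1 h edgeR called 0 of the 6, against 0.0122% higher and 0.0548% lower of all genes, as did DESeq2 and limma-voom. Among these 6, ID2 alone had an unadjusted p under 0.05 in edgeR's quasi-likelihood test (−0.32, SE 0.14, adjusted p = 0.681).

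The other genes of the BMP and TGF-beta pathway were taken from 11 lists of 126 genes by role, of which 105 were tested. From 1 h to 4 h of feeding with Torin1, 7 of the 105 rose and 5 fell, against 0.573% and 0.896% of all genes. Their median was −0.002 beside −0.02 over all genes. Their risers included SMAD9, a signalling SMAD of the BMP branch (44.4 ± 4.35 CPM at 4 h and 22.8 ± 0.661 CPM at 1 h; 0.96, SE 0.12, adjusted p = 1.22e-05), and SKIL, a repressor of SMAD complexes that TGF-beta induces (47.6 ± 6.73 and 18.6 ± 0.969 CPM; 1.35, SE 0.14, adjusted p = 4.34e-07). PMEPA1, a TGF-beta-induced inhibitor, rose by 0.81 (SE 0.19, adjusted p = 0.0223). Of 14 other BMP targets tested, 4 rose and 0 fell, among them the homeobox gene MSX2 (0.88, SE 0.14, adjusted p = 0.000373) and the T-box gene TBX3 (0.55, SE 0.11, adjusted p = 0.00372). The 5 that fell were the ligands BMP6 (−0.58), BMP7 (−0.48) and GDF11 (−0.64), the coreceptor TGFBR3 (−0.67) and the matricellular gene CCN1 (−0.91). The list total was 7 to 8 genes when any 1 of the 6 libraries was left out, against 12 with all.

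In 4 h fed cells 33 of the 105 pathway genes were higher and 24 lower with Torin1, counts near the background of 27.4% and 28.6% of all genes, and their median log2 fold change was 0.09 beside 0.02 over all genes. Among receptors and coreceptors 8 of 14 rose and 1 fell, including BMPR1B, a type I BMP receptor (5.41 CPM with Torin1 and 1.85 CPM without; 1.54, SE 0.24, adjusted p = 2.59e-06), and the repulsive guidance molecule receptor NEO1 (93.2 and 45.1 CPM; 1.05, SE 0.08, adjusted p = 1.08e-11). Of the 6 signalling SMADs, SMAD9 (1.28, SE 0.13, adjusted p = 7.15e-10) and SMAD3 of the TGF-beta branch (0.73, SE 0.12, adjusted p = 8.50e-06) rose, while 3 fell, among them SMAD4 (−0.52) and SMAD5 (−0.46). Secreted antagonists counted 4 higher and 0 lower of 10, with FSTL1 at 0.84 and CRIM1 at 0.66. Intracellular inhibitors had 7 of 19 higher and 5 lower. CTDSP1, a small phosphatase that acts on SMADs, averaged 111 ± 4.21 CPM with Torin1 and 35.0 ± 6.01 CPM without (1.67, SE 0.12, adjusted p = 1.10e-12), while the antiproliferative gene TOB2 fell (−0.99, SE 0.11, adjusted p = 4.61e-09). Other BMP targets counted 4 higher, such as HEY1 (0.69) and HES1 (0.69), and 2 lower, MSX1 (−0.66) and JUNB (12.8 CPM with Torin1 and 25.6 CPM without), of 14. BMP ligands had 2 of 8 higher, GDF7 (1.43) and BMP8B (0.46), and 1 lower, BMP6 (−0.64). The E proteins that ID proteins bind split, with TCF4 (0.86) and TCF12 (0.35) higher and TCF3 (−0.42) lower. In ID protein turnover, the deubiquitinase gene USP1 (−0.47) and CDC20 (−0.63) were among 3 of 5 that fell.

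In starved cells the same lists gave 34 higher and 34 lower with Torin1, near the 33.9% and 29.6% of all genes, and in 1 h fed cells 35 and 34, near 33.2% and 29.9%. The list medians were −0.07 and −0.02, beside 0.09 and 0.06 over all genes. GATA2, a transcription factor and BMP target, averaged 20.5 ± 2.43 CPM with Torin1 and 67.6 ± 6.87 CPM without in starved cells (−1.72, SE 0.11, adjusted p = 1.69e-14), and BMP2 5.19 ± 0.146 and 0.956 ± 0.402 CPM (2.45, SE 0.39, adjusted p = 2.30e-06). The 4 h interaction called 27 of the 105 higher and 15 lower, against 9.74% and 16.0% of all genes (medians 0.09 and −0.02), among them SKIL (1.63, SE 0.21, adjusted p = 3.72e-07) and DLX2 (1.33, SE 0.15, adjusted p = 9.66e-08) higher and TBX3 (−0.62, SE 0.15, adjusted p = 0.00234) lower. From starvation to 4 h of feeding, 10 of the 105 rose and 4 fell with Torin1, against 0.829% and 0.975% of all genes, and 19 rose and 33 fell without, against 23.2% and 19.1%. At 1 h, 4 rose and 1 fell with Torin1, against 0.274% and 0.128% of all genes. CCN1 was among the risers (1.70, SE 0.21, adjusted p = 6.55e-05). These 5 calls dropped to 3 without the first starved Torin1 replicate and to 1 without any other of the 6 libraries compared, and to 3 with DESeq2 size factors or scaling by total counts. Without Torin1, 2 rose and 0 fell at 1 h, against 0.481% and 0.164% of all genes. They were SKI (0.33, SE 0.08, adjusted p = 0.0365) and HEY1 (0.43, SE 0.08, adjusted p = 0.00631), both of which were lost with only the groups compared.

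**Figure D5:**
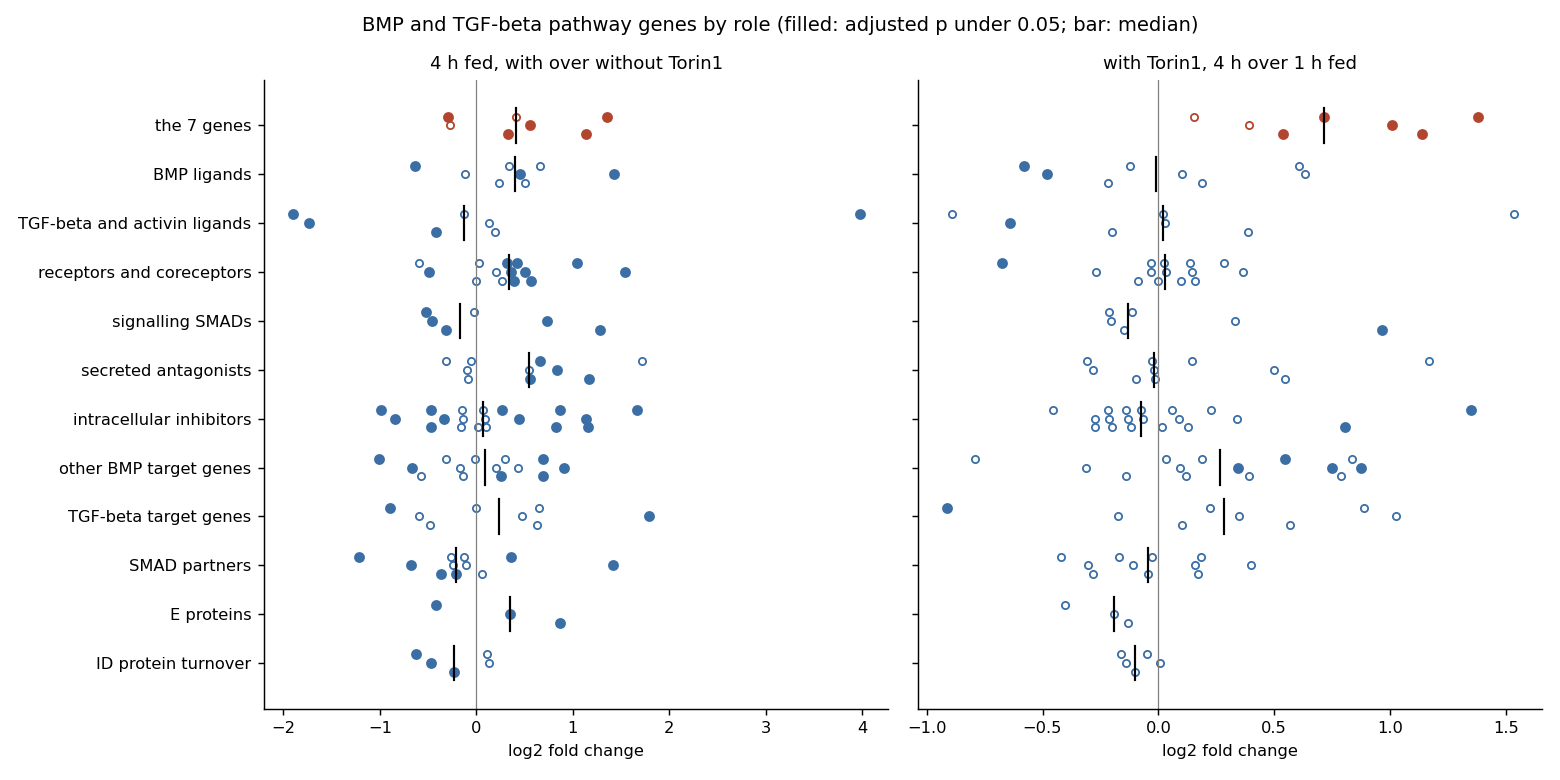
Log2 fold change (x axes) of the tested genes in each role list (rows; the 7 genes on top in red, medians as bars) for 4 h fed cells with over without Torin1 (left) and 4 h over 1 h of feeding with Torin1 (right); filled points passed an adjusted p of 0.05. On the right, 5 of the 7 genes and 12 of 105 listed genes are filled, beside 0.573% of all genes higher and 0.896% lower. Nothing is read from the 5, since feeding was used to choose the genes. In the right panel SKIL at 1.35 is the highest filled point of the lists.

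The deposited isoform table shows which transcripts carried the counts. ID4 had 1 isoform, and 97.4% of ID3 counts, 90.7% of ID1 counts, 89.6% of ID2 counts and 88.7% of BAMBI counts belonged to the main protein-coding isoform over all libraries. SMAD6-201, the protein-coding SMAD6 transcript of 4 exons, held 67.0% of SMAD6 counts, and a single-exon processed transcript, SMAD6-205, held 32.8%. SMAD6-201 made up 70.6% ± 1.12 of SMAD6 counts in 4 h fed cells with Torin1 and 55.9% ± 2.57 without it (SD, n = 3). Its own level was 31.0 ± 1.68 and 8.55 ± 0.763 CPM in these groups, here without TMM scaling. Isoform CPM therefore reads higher with Torin1, and lower without it, than the TMM-scaled gene CPM used elsewhere. For ID4, with its 1 isoform, the unscaled levels in 4 h fed cells were 98.9 CPM with Torin1 and 108 CPM without. The scaled gene levels of ID4 were 93.1 and 114 CPM. SMAD7-201 held 67.8% of SMAD7 counts and a retained-intron transcript, SMAD7-202, held 30.0%. The level of SMAD7-201, also without TMM scaling, was 27.6 ± 2.13 CPM with Torin1 and 11.1 ± 2.10 CPM without in 4 h fed cells. Isoform shares were not tested. How the counting used strand is not given in the sources, so reads of antisense neighbours could be mixed in: ID2-AS1 had 4 to 45 counts per library, at most 6.36% of the lowest ID2 count, and AL022068.1, which overlaps ID4, had 0 to 7. ID1, ID3, SMAD7 and BAMBI overlapped no annotated gene.

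The group profiles were compared by the root mean square difference of log2 CPM over 6 group means, each gene centred on its own mean, among 11689 genes with at least 5 CPM. SMAD6 and SMAD7 lay 0.24 apart and ID2 and BAMBI also 0.24, whereas ID1 and ID4 were the farthest pair of the 7 at 1.17. The gene nearest to both SMAD6 (0.033) and SMAD7 (0.22) was PDLIM7, which encodes a PDZ and LIM domain protein. Behind it came SAMD11 (0.088) and H2BC5 (0.19) for SMAD6, and FZD1 (0.26), a Wnt receptor gene, and SPSB4 (0.27) for SMAD7. ID3 was nearest to EFR3B (0.34), MSX2 (0.37) and LRIF1 (0.37), ID4 to AHR (0.13), ZNF669 (0.14) and SLC35D1 (0.14), ID2 to ZNF841 (0.089), CARMIL2 (0.10) and PGBD5 (0.10), and BAMBI to CCDC134 (0.072), ZNF79 (0.089) and NAGK (0.098). ID1 had no close neighbour outside the 7, the nearest being ZNF304 at 0.61, followed by ZNF28 (0.75) and ZNF473 (0.76), and ID3 was as near at 0.60.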

How the data were processed

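Total RNA of 18 HEK-293E libraries was sequenced by the authors and, per the labels' protocols, STAR aligned the reads in 2 passes; the submitters' processing notes also name RSEM and DESeq2, without versions. The labels name a C. elegans build, but the identifiers are human Ensembl identifiers; the sources used here do not name the human build, annotation or strand use. The deposited gene table holds expected counts, estimated per gene and not normalised (3.32% of values not whole), and the deposited isoform table holds counts per transcript. Depth was 10510689 to 13690035 counts per library, and the limits quoted cover counting error only.

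Expected counts were rounded, filtered with filterByExpr (minimum count 10, leaving 16414 genes), and scaled by TMM. Means of the 6 groups were fitted in edgeR 4.0.16 (R 4.3.3) with robust quasi-likelihood F tests and 12 residual degrees of freedom. P-values were Benjamini-Hochberg adjusted over all genes tested in a comparison, and an adjusted p under 0.05 was a call. SEs were the log2 fold change over the root of F. The 7 genes and the pathway, marker and motif lists were chosen with earlier results of these data known. Named pathway genes were up to 2 called genes with the smallest p per list, comparison and direction among those with at least 1 CPM; fewer are printed. Positions and isoform lengths came from GENCODE release 29, which held 98.9% of isoform counts; promoter windows came from RefSeq (GRCh38.p14). The alternatives tried were the size factors and the Wald test of DESeq2 1.42.0, total counts, limma-voom (limma 3.58.1), no filter, only the groups compared, isoform sums, the replicate number as a block and leaving out each library. The deviations of same-numbered libraries from their group means correlated weakly. For 4 h of feeding with Torin1 the 3 pairs had 0.108 to 0.269, and for Torin1 in 4 h fed cells 0.0888 to 0.260. Other comparisons reached down to −0.240, for 4 h against 1 h of feeding. The main fit did not use the replicate number. The tests were tried on simulated counts first.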

Additional observations from a re-analysis of the deposited data

Results flagged for a closer look

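The Torin1 difference in 4 h fed cells was unlike that in starved cells for 3 genes, by a test of the difference itself. SMAD7 had an interaction of 0.85 on the log2 scale (SE 0.21, adjusted p = 0.00224), with Torin1 values of 1.14 in 4 h fed and 0.29 in starved cells. ID4 had 0.70 (SE 0.16, adjusted p = 0.00175), with −0.29 and −0.99. ID3 had 0.56 (SE 0.19, adjusted p = 0.0284), with 0.55 and −0.01. The ID3 call was lost on leaving out any 1 of 8 of the 12 libraries compared, with adjusted p between 0.0501 and 0.110.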

How the results depend on the processing

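Of 730 alternative values of the 7 genes in comparisons with a test, 681 kept direction and side of the threshold, 17 gained and 16 lost a call and 16 changed sign. The 730 include those of ID1 with Torin1 and from 1 h to 4 h of feeding, whose calls are not read. Feeding and the ID1 interaction had no test; 10 of their 432 alternative values changed sign, in 6 results whose values were at most 0.082 in size. They were SMAD6 at 1 h (up to 0.18 without a library), ID4 at 4 h (up to 0.074), SMAD6 (−0.0087 with total counts), ID2 (0.077) and BAMBI (up to 0.12) at 1 h with Torin1, and ID1 in the 4 h interaction (down to −0.15). Among tested comparisons, the values that changed sign were uncalled. ID3 with Torin1 in starved cells was 0.13 with total counts, 0.0070 with no filter and 0.0030 with isoform sums, and −0.28 to 0.14 when a library was left out; ID2 with Torin1 in 1 h fed cells was 0.090 with total counts. With a library left out, BAMBI with Torin1 in starved cells ranged from −0.063 to 0.29, ID1 from 1 h to 4 h with Torin1 from −0.0023 to 0.26, SMAD6 in the 1 h interaction from −0.14 to 0.19 and ID2 in the 4 h interaction from −0.049 to 0.18. Counts of called pathway genes moved for 1 h of feeding (2; 1 with DESeq2 size factors, total counts or no filter, 0 with only the groups compared, 0 to 4 without a library), 1 h of feeding with Torin1 (5; 3 with DESeq2 size factors or total counts, 1 to 3 without a library), 4 h of feeding with Torin1 (14; 23 with only the groups compared), 4 h against 1 h with Torin1 (12; 7 to 8 without a library) and the 1 h interaction (0; 1 with total counts or the replicate block, 2 with DESeq2 or no filter, 0 to 2 without a library). All-gene calls moved likewise: 4 h against 1 h with Torin1 (241; 441 with DESeq2, 364 with no filter, 374 with the replicate block, 725 with only the groups compared, 99 to 204 without a library), 4 h of feeding with Torin1 (296; 461 with DESeq2, 640 with only the groups compared, 134 to 189), 1 h of feeding (106; 165 with DESeq2, 164 with no filter, 39 with only the groups compared, 55 to 248), the same with Torin1 (66; 122, 150, 208 in that order, 110 with the block, 22 to 45) and the 1 h interaction (11; 37 with DESeq2, 3 with limma-voom, 77 with no filter, 23 with the block, 4 with only the groups compared, 3 to 39). The cause was not tested. Libraries with the same replicate number correlated at a mean of 0.077, against −0.038 for other numbers, and 12 of 18 correlated best with their own number. The main tests did not use this weak link. As a block, the replicate number moved ID1 with Torin1 in 4 h fed cells to 0.42. It also moved ID1 from 1 h to 4 h without Torin1 to 0.44. No call is read from either value, and no call of the other genes changed. Depth limits ID1 most, at 31 to 42 counts in starved libraries.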
